A study of Mus musculus with 3 samples.

Results

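The T cell cytokine and effector genes, 10 of the 19937 genes named on the array, were followed across 3 libraries of sorted mouse medullary thymic epithelial cells. They were listed by symbol, and were selected on their measured levels in these libraries: the cytokine genes Il2, Il4, Il5, Il10, Il13 and Ifng, the surface receptor genes Ctla4 and Icos, the transcription factor gene Foxp3 and the granzyme gene Gzmb. Each gene's level was the log2 intensity of its single probe set, judged against the olfactory receptor (Olfr) genes of the same library, which are mostly silent outside the nose. The libraries were AireKO, from mice with the genotype Aire–/–, Sirt1cKO, from Sirt1fl/fl mice carrying Foxn1-Cre, and WT, from Sirt1fl/fl mice without Cre. Foxn1-Cre acts in thymic epithelium, so other cells of the Sirt1cKO mice keep Sirt1, and the WT mice carry the floxed alleles. All mice were labelled C57b/6 and were 6 weeks old, and typically 3 were pooled for a library. Cells were sorted as EpCAM+, CD45-, Ly51 low and MHC-II high, and their RNA was amplified and read on Affymetrix Mouse Gene 1-ST arrays. With 1 library per genotype no test was made, no p-value is given, and each difference describes a pair of libraries and not the genotypes.

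Helper T cells signal through secreted cytokines. IL-4, IL-5 and IL-13 are made by type 2 helper cells from neighbouring genes, interferon gamma by type 1 helper and killer cells, IL-2 drives T cell growth and IL-10 restrains inflammation. CTLA-4 and ICOS are receptors of activated and regulatory T cells for ligands on antigen-presenting cells, Foxp3 specifies regulatory T cells, and granzyme B kills target cells. Medullary thymic epithelial cells transcribe many genes of other tissues at low frequency, in part through Aire, and display them to developing T cells. In such a bulk sample, fewer cells that express a gene and less RNA per cell cannot be told apart.

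The array values limit what can be read from the genotype labels. The description fields of AireKO and Sirt1cKO name each other's genotype, and AireKO and Sirt1cKO here stand for the libraries so named by their titles. Aire itself stood at log2 11.55 in AireKO, 11.24 in Sirt1cKO and 11.97 in WT, and Sirt1 at 11.42, 11.27 and 11.40 in the same order. Probe sets spread over a whole transcript may miss a deleted part, so these values do not check the labels. Sex-linked genes differed too, with Xist at 6.75 in AireKO, 11.46 in Sirt1cKO and 12.17 in WT, and the Y-linked Eif2s3y at 9.75, 8.92 and 4.23. Xist was within background in AireKO and Eif2s3y in WT, while both were above it in Sirt1cKO. Each comparison with WT is thus also between libraries of unlike sex make-up. The MHC class II gene H2-Ea stood at 13.23 in AireKO, and within background at 5.90 in Sirt1cKO and 5.60 in WT. Genotype cannot be told apart from these differences in sex-linked genes and H2-Ea. Whether the 3 libraries shared a strain background, as their labels state, was not tested. The 12 listed genes of mature medullary epithelium, among them Epcam, Foxn1 and Krt8, were above background in all 3 libraries. Their levels were not equal, with a median difference from WT of -0.77 in AireKO and -0.41 in Sirt1cKO. In AireKO 4 of the 12, Foxn1 among them, were at least 2-fold lower than in WT, beside 5.51% of all genes.

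The Olfr background was not equal between libraries. Its 95th percentile over 1027 genes lay at 6.89 in AireKO, 6.34 in Sirt1cKO and 6.02 in WT, and its median at 5.37, 4.90 and 4.58. Of the Olfr genes themselves, 234 exceeded their WT level by at least 2-fold in AireKO and 1 fell short of it by as much. A small positive difference of a dim gene between AireKO and WT therefore lies within what these background genes showed.

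Above the 95th percentile stood 7 of the 10 genes in AireKO, 6 in Sirt1cKO and all 10 in WT. Over all named genes the shares above it were 56.1% in AireKO, 67.1% in Sirt1cKO and 72.7% in WT. Both the count and the share over all genes were highest in WT, where the background was lowest. The order of the counts depended on the limit: against the 99th Olfr percentile they were 5 in AireKO, 2 in Sirt1cKO and 4 in WT. Il4, Il10, Il13, Ctla4 and Icos were above the 95th percentile in all 3 libraries. Just above that limit were Il2 at 7.19 in AireKO, and Il4 at 6.80 and Il5 at 6.81 in Sirt1cKO. So were Il2 at 6.18 and Foxp3 at 6.13 in WT. Just below it, and so within background, were Foxp3 at 6.85 in AireKO and Ifng at 6.29 in Sirt1cKO.

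**Figure D1:**
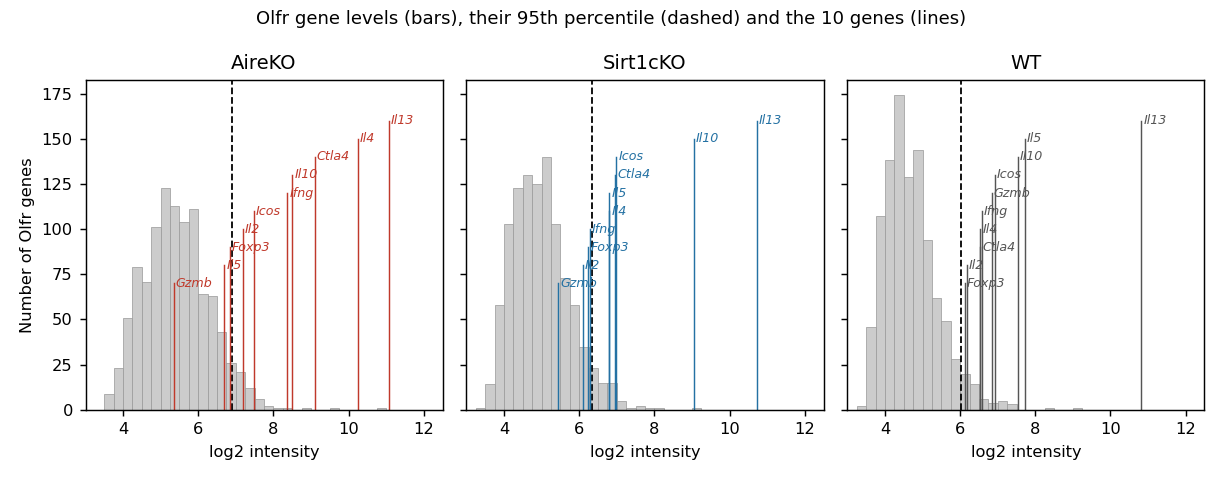
Log2 intensity (x axis) of the 1027 Olfr genes as a histogram of gene number (y axis), in AireKO, Sirt1cKO and WT from left to right. The dashed line is the 95th percentile, at 6.89, 6.34 and 6.02, and coloured lines mark the 10 genes; the height of a line carries no value. Il13 lies beyond all Olfr genes in each library, and Il4, Ctla4 and Ifng lie far beyond the dashed line in AireKO.

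The type 2 cytokine genes lie together on chromosome 11 (GRCm38.p6), where Il4 spans 53612460 to 53618665, Il13 spans 53631323 to 53634702 and Il5 spans 53720794 to 53725103. They did not move together. Il4, whose product directs type 2 helper differentiation and class switching in B cells, had a log2 level of 10.25 in AireKO, 6.80 in Sirt1cKO and 6.54 in WT. These are intensities of 1216 in AireKO, 112 in Sirt1cKO and 93.1 in WT. AireKO thus stood far above the other libraries, with 1 Olfr gene at or above Il4 there, against 22 in Sirt1cKO and 18 in WT. The difference from WT was 3.71 on the log2 scale in AireKO, 13.1-fold, and 0.26 in Sirt1cKO. AireKO minus Sirt1cKO was 3.44.

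Il13, whose product acts on epithelium and mucus secretion through a receptor chain shared with IL-4, stood at 11.08 in AireKO, 10.72 in Sirt1cKO and 10.82 in WT. No Olfr gene reached it in any library, and the libraries lay within 0.36 of each other, the narrowest range of the 10 genes. Il5, the eosinophil growth factor gene, went the other way from Il4. It stood at 6.69 in AireKO, within background, 6.81 in Sirt1cKO and 7.73 in WT. The AireKO level was at least 1.79-fold lower than WT, taking the background limit in place of the dim value, and the unbounded difference was -1.03. Sirt1cKO differed from WT by -0.92, so Il5 was lower than WT in both knockout libraries.

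The annotated start regions of Il4, Ctla4 and Ifng are printed as the 3 genes that stood highest over WT in AireKO, with Il13 as the neighbour of Il4 that did not. Each window runs from 250 bases before to 50 after the start of transcription, in RefSeq's GRCm38.p6, 5′ to 3′ on the gene's strand. Capitals mark GGAAA on either strand, the core bound by NFAT factors, which T cell activation switches on.
Il4 (chr11:53618616-53618915, minus strand): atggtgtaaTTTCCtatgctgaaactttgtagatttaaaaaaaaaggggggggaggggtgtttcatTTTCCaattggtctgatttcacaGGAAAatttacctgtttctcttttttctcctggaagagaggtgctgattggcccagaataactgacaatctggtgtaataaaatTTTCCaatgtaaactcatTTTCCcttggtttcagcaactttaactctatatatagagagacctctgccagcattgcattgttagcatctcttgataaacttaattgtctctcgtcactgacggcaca
Il13 (chr11:53634653-53634952, minus strand): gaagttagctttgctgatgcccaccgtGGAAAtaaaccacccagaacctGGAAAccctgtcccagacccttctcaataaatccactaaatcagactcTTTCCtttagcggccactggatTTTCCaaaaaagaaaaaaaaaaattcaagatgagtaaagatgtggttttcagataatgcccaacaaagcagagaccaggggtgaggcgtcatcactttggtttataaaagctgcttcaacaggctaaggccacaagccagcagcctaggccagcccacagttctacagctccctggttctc
Ctla4 (chr1:60908775-60909074, plus strand): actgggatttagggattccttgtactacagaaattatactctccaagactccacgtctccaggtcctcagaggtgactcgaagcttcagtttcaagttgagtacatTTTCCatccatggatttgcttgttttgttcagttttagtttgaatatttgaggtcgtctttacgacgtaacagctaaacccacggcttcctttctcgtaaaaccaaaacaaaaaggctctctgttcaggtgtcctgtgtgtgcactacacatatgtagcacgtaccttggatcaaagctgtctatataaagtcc
Ifng (chr10:118440796-118441095, plus strand): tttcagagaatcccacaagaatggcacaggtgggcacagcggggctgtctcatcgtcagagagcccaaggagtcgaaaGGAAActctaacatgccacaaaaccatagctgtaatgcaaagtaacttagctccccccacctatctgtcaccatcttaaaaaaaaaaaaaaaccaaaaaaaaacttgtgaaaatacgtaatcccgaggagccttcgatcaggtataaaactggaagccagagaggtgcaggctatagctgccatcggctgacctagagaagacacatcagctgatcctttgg

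The printed Il4 window held 5 copies of GGAAA, counting overlaps and both strands, and the second Il4 window, chr11:53617289-53617588, held 1. That of Il13 held 4, and those of Ctla4 and Ifng held 1 each. In all, 8 of the 10 genes had a window, 10 windows in number, of which 9 held the core; Icos and Il10 had none in the table. Of all 32851 windows of this length, 61.3% held it, so its presence sets these genes little apart. TATAAA, in 13.6% of all windows on either strand, lay 31 bases before the start in Il2, 30 in Ifng and 32 in the first Foxp3 window. In Il13 a pair of overlapping matches lay 31 and 29 bases before the start. The Il4 windows held no TATAAA, and the match in Ctla4 lay 40 bases after the start. TGANTCA, the AP-1 motif, was in 7.81% of all windows and, of these 10, in that of Gzmb. Such matches are letters in a window and do not show binding.

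Genes around Il4 on the array showed no difference of like size. Kif3a, a kinesin motor gene that ends 8.21 kb before Il4, was within background in AireKO, at 6.77, and stood at 6.70 in Sirt1cKO and 7.13 in WT, at least 1.18-fold lower in AireKO than in WT. Septin8 differed between AireKO and WT by -0.46. Il13 begins 12.7 kb beyond Il4 and differed by 0.26. Rad50, a DNA repair gene that lies between Il13 and Il5, stood at 9.53 in AireKO, 8.56 in Sirt1cKO and 8.81 in WT. It differed from WT by 0.72 in AireKO and -0.24 in Sirt1cKO, and AireKO minus Sirt1cKO was 0.97. Within 120 kb, Il4 was thus the measured gene with AireKO at least 2-fold above another library. Il13 and Rad50 were also highest in AireKO, by less.

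**Figure D2:**
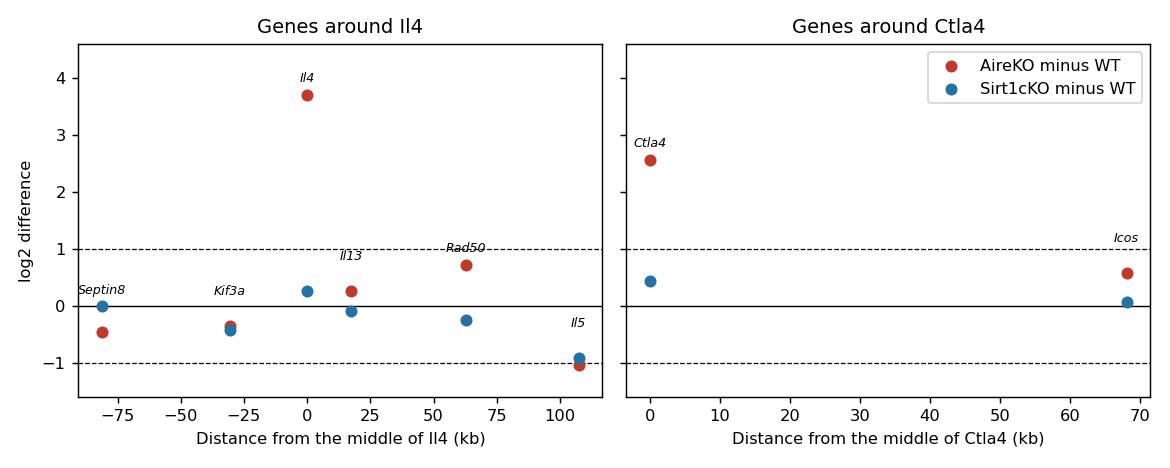
Log2 difference from WT (y axis) of the genes on the array within 120 kb of Il4 (left) and Ctla4 (right), by distance between gene middles in kb (x axis). Red points are AireKO minus WT and blue points Sirt1cKO minus WT, 1 library each; dashed lines mark 2-fold. Il4 at 3.71 and Ctla4 at 2.56 lie above the dashed line in AireKO, and their neighbours do not.

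Among the receptors, Ctla4 showed the same order as Il4. Ctla4, the inhibitory receptor for CD80 and CD86, spans 60909025 to 60915832 on chromosome 1. It stood at 9.10 in AireKO, 6.96 in Sirt1cKO and 6.53 in WT. AireKO was 5.92-fold above WT, a difference of 2.56, and 4.40-fold above Sirt1cKO, while Sirt1cKO and WT differed by 0.43. Icos, the costimulatory receptor gene that begins 44.9 kb beyond Ctla4, stood at 7.49 in AireKO, 6.99 in Sirt1cKO and 6.92 in WT. Its differences from WT, 0.57 in AireKO and 0.07 in Sirt1cKO, were below 2-fold, and that in AireKO was below the Olfr median difference of 0.70. Cd28, the activating receptor of the same family, was within background in AireKO, at 6.71, and stood at 6.62 in Sirt1cKO and 6.50 in WT.

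Ifng, which encodes the interferon that induces MHC class II, spans 118441046 to 118445894 on chromosome 10. It stood at 8.37 in AireKO, 6.29 in Sirt1cKO, within background, and 6.58 in WT. AireKO was 3.45-fold above WT and at least 4.08-fold above Sirt1cKO. With each library centred on its Olfr median, the AireKO minus WT difference of 1.79 became 0.997, just under 2-fold. Il2, on chromosome 3, stood at 7.19 in AireKO, 6.11 in Sirt1cKO, within background, and 6.18 in WT. Its difference of 1.02 between AireKO and WT lay at the 2-fold limit and became 0.23 after Olfr centring, and 0.85 to 0.91 after quantile, loess or median scaling. In AireKO 35 Olfr genes reached the Il2 level, against 38 in WT, so its place among the background genes was nearly the same.

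Il10 had another order, with Sirt1cKO highest. This gene of an anti-inflammatory cytokine, at 131019845 to 131024970 on chromosome 1, stood at 8.51 in AireKO, 9.05 in Sirt1cKO and 7.54 in WT. All 3 levels lay well above background, with 3, 0 and 2 Olfr genes at or above it. Sirt1cKO was 2.84-fold above WT, a difference of 1.504, and AireKO 1.95-fold above WT, a difference of 0.96. That AireKO difference passed 2-fold after quantile normalization, at 1.10, and after loess, at 1.17, and became 0.17 after Olfr centring. Mapkapk2, a stress kinase gene 28.7 kb from Il10, went the other way, at 7.999 in AireKO, 9.03 in Sirt1cKO and 9.32 in WT. Il19 and Il20, cytokine genes on the other side, were within background in all 3 libraries.

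Foxp3 and Gzmb were within background in both knockout libraries. Foxp3, on the X chromosome, stood at 6.85 in AireKO and 6.24 in Sirt1cKO, and at 6.13 in WT, just above it. No fold is given, since the WT level lay below the limits of the other libraries. Gzmb, on chromosome 14, stood at 5.34 in AireKO and 5.45 in Sirt1cKO, and at 6.84 in WT. In AireKO, 524 of the 1027 Olfr genes reached it, against 12 in WT. Sirt1cKO was at least 1.41-fold lower than WT. The WT level lay under the AireKO background limit, so no fold against AireKO is given.

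**Figure D3:**
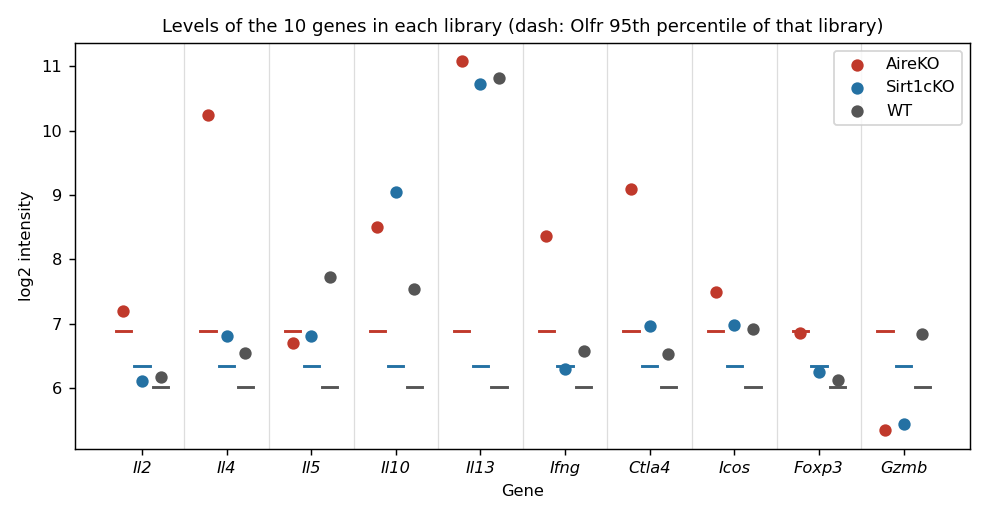
Log2 intensity (y axis) of the 10 genes (x axis) in AireKO (red), Sirt1cKO (blue) and WT (grey), 1 library each, with a dash at the Olfr 95th percentile of that library. Il4, Ctla4 and Ifng are high in AireKO alone, Il10 is highest in Sirt1cKO, Il13 is level, and Il5 and Gzmb are highest in WT.

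AireKO and WT were compared as 1 library each, and they differ in sex-linked genes and H2-Ea as well as in labelled genotype. Of the 10 genes, 4 exceeded WT by at least 2-fold in AireKO (Il4, Ctla4, Ifng and Il2), beside 3.20% of all genes, and 2 were at least 2-fold lower (Gzmb and Il5), beside 5.51%. With values within background set to their limit, 4 were higher and 0 lower. Centred on the Olfr median, 2 were higher, Il4 and Ctla4, and 2 lower, while the split over all genes went to 68 higher and 6806 lower, against 638 and 1098 unscaled. The median difference of the 10 was 0.84, against 0.02 over all genes and 0.70 over Olfr genes. The list was drawn up with these values known, so its share past 2-fold is a description of the chosen genes.

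Sirt1cKO and WT were also compared as 1 library each, and they differ in the Y-linked Eif2s3y as well as in labelled genotype. Il10 was the gene at least 2-fold higher, 1 of 10, beside 0.582% of all genes. Gzmb was the gene at least 2-fold lower, 1 of 10, beside 1.13%, and it was no longer so with background limits. The median of the 10 was -0.0021, against 0.0030 over all genes and 0.27 over Olfr genes. Both comparisons use the same WT library, so the low Il5 and Gzmb values in each rest on the same WT values.

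Between the knockout libraries, 4 of the 10 genes exceeded Sirt1cKO by at least 2-fold in AireKO (Il4, Ctla4, Ifng and Il2), beside 1.00% of all genes, and 0 were lower, beside 1.74%. With background limits the first count was 3, since Il2 was then at least 1.81-fold higher. The median difference was 0.55, against 0.02 over all genes and 0.43 over Olfr genes. With the AireKO and Sirt1cKO labels exchanged, as the description fields have them, each of these 4 differences changes sign and the Il4 excess over WT belongs to the Sirt1 knockout.

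**Figure D4:**
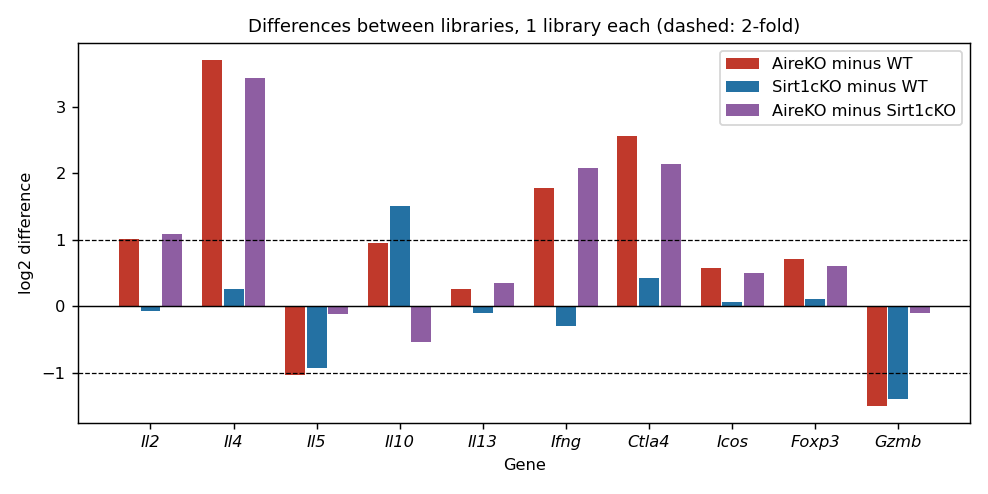
Log2 difference (y axis) of the 10 genes (x axis) in AireKO minus WT (red), Sirt1cKO minus WT (blue) and AireKO minus Sirt1cKO (purple), 1 library each; dashed lines mark 2-fold. Il4 reaches 3.71 and Ctla4 2.56 in AireKO minus WT, and Il10 reaches 1.504 in Sirt1cKO minus WT.

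Genes that mark T cells as such did not share these differences. Of 18 T cell and thymocyte identity genes on the array, 11 were above background in AireKO, 13 in Sirt1cKO and 13 in WT. Over all genes the shares above it were 56.1%, 67.1% and 72.7% in the same order. Cd3d, of the T cell receptor complex, Zap70, its kinase, and Ptcra, Rag2 and Dntt, of immature thymocytes, were within background in all 3. None of the 18 was 2-fold apart in any comparison. Their median difference from WT was 0.19 in AireKO and 0.11 in Sirt1cKO, and their summed intensity was 2861 in AireKO, 2871 in Sirt1cKO and 2411 in WT. Cd3g stood at 8.48 in AireKO, 8.38 in Sirt1cKO and 7.93 in WT, and Cd8b1 at 8.58, 8.65 and 7.82. Ptprc, which encodes the CD45 excluded by the sort, stood at 7.64 in AireKO, 7.66 in Sirt1cKO and 7.77 in WT. The part of T cells in the levels of Il4, Ctla4 and Ifng was not tested.

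Other T cell effector lists held 2 genes or fewer past 2-fold in any comparison. In AireKO minus WT, 3.20% of all genes were at least 2-fold higher and 5.51% at least 2-fold lower. Of 9 further helper cytokine genes, 0 were above WT by at least 2-fold in AireKO and 2 below it. Il9, a mast cell growth factor gene, stood at 7.51 in AireKO, 9.49 in Sirt1cKO and 9.57 in WT, 4.14-fold lower in AireKO than in WT. Il3 stood within background at 5.34 in AireKO and 6.19 in Sirt1cKO, against 6.82 in WT, which lies under the AireKO limit. With background limits 1 of the 9 was lower. Of 9 cytotoxic genes, Eomes, a T-box factor gene of killer cells, was the gene 2-fold apart, at 8.47 in AireKO, 7.04 in Sirt1cKO and 7.24 in WT. It was 2.33-fold above WT in AireKO, the direction of Il4, Ctla4 and Ifng. In AireKO minus WT, 7 of the 9 cytotoxic genes had a difference above 0, but 5 of the 9 were within background in all 3 libraries. The median difference of the 9, 0.27, was below the Olfr median difference of 0.70. All 14 helper and regulatory T cell regulators were above background in each library, and 0 were 2-fold apart in any comparison. They included Gata3, the type 2 regulator, at 8.01 in AireKO, 8.52 in Sirt1cKO and 8.44 in WT, and Tbx21, the type 1 regulator, at 9.94, 9.62 and 9.53. None of 9 checkpoint and costimulatory receptor genes was 2-fold apart either. In AireKO 7 of them had a difference from WT above 0, with a median over the 9 of 0.21, again below the Olfr median of 0.70.

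The receptors and ligands that meet these products were mostly well above background. Of 11 cytokine receptor genes, 1 was above WT by at least 2-fold in AireKO and 2 below it, and 0 were 2-fold apart in Sirt1cKO. Over all genes, 3.20% were above WT by as much in AireKO and 5.51% below it. Il2ra, the high-affinity chain of the IL-2 receptor, stood at 11.66 in AireKO, 10.85 in Sirt1cKO and 10.41 in WT, 2.39-fold above WT in AireKO. Ifngr2, a chain of the interferon gamma receptor, stood at 10.37 in AireKO, 11.56 in Sirt1cKO and 12.22 in WT, 3.61-fold below WT in AireKO. Il10rb, a chain of the IL-10 receptor, stood at 8.48, 9.57 and 9.498 in the same order. Il4ra, the IL-4 receptor chain, differed from WT by -0.33 in AireKO and -0.50 in Sirt1cKO. The CTLA-4 ligand gene Cd80 stood at 12.58 in AireKO, 12.18 in Sirt1cKO and 11.82 in WT, and Cd86 at 9.05, 7.97 and 8.35. Cd86 was 2.11-fold higher in AireKO than in Sirt1cKO. Icosl, the ICOS ligand gene, differed from WT by 0.31 in AireKO and -0.07 in Sirt1cKO.

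Genes that IL-4, IL-13 or interferon gamma induce in other cells were not higher in AireKO by 2-fold. Of 9 listed IL-4 and IL-13 response genes, 0 were above WT by at least 2-fold in AireKO and 3 below it. Over all genes, 3.20% were above WT by as much in AireKO and 5.51% below it. The chemokine gene Ccl22, which is also among the 12 mature medullary genes, differed by -1.58, and the cytokine signalling inhibitor gene Cish by -1.12. Retnla, a type 2 macrophage gene, did not pass the AireKO background limit, which lay 2.67-fold under its WT level. Of 6 interferon gamma response genes, 0 were higher and 1 lower by 2-fold. Their median difference from WT was 0.37 in AireKO, and 4 of the 6 lay above 0, among them the chemokine genes Cxcl9 at 0.60 and Cxcl10 at 0.44. The lower gene, Socs1, an inhibitor of interferon signalling, stood at 8.28 in AireKO, 8.90 in Sirt1cKO and 9.39 in WT. In Sirt1cKO none of these 15 genes was 2-fold from WT.

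The genes most like Il4 over the 3 libraries were taken by Euclidean distance between log2 values centred on each gene's mean. They were Zfp979, Ccnb1ip1, Acot12 at a distance of 0.67, Glipr1 at 0.68 and Ctla4 at 1.01. For Zfp979 and Ccnb1ip1 no distance is given, since values within background entered it and their place among the 5 is not settled. Zfp979, a zinc finger gene, did not pass background in Sirt1cKO and WT, and its AireKO level was at least 2.96-fold above WT. Ccnb1ip1, a meiotic recombination gene, stood at 9.51 in AireKO, 6.28 in Sirt1cKO, within background, and 6.15 in WT. Acot12, an acetyl-CoA hydrolase gene, stood at 9.77, 7.01 and 6.97, and Glipr1 at 10.67, 8.03 and 7.83. Likeness over 3 libraries is a coarse measure, and these 5 genes lie on 5 chromosomes, none of them chromosome 11.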

How the data were processed

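The authors deposited 1 intensity per probe set, unlogged. Per the submitters' processing notes they used RMA. How and in which version RMA was run, and how its log values became linear again, is not given in the sources used here. Here log2 was taken, with no further normalization. The platform table gave 1 gene symbol for 21640 of the 34760 probe sets, several for 1321 and none for 11799. The brightest single-symbol probe set on average stood for a gene, which gave 19937 genes; each of the 10 genes had 1. A value at or below the 95th percentile of 1027 Olfr genes in its library was treated as within background, and a fold against it as a lower bound with that percentile in its place. A difference of at least 2-fold was counted. Every Entrez identifier of the 10 genes matched its symbol in the RefSeq table of GRCm38.p6, which also gave coordinates and start regions. The number of arrays limits the precision.

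The 10 genes and the other lists were chosen with earlier results of these data known. Other genes named from those lists were above background in a library and at least 2-fold from WT, up to 4 per list, with receptors, ligands, regulators, identity markers and neighbours added for context. The 5 genes most like the gene of widest range left out predicted genes, small RNAs and chemosensory receptors. Alternatives were other scalings, thresholds, backgrounds and labels. All value columns belonged to the 3 samples. The counting was tested on simulated data. Software was numpy 2.4.6, pandas 2.3.3, statsmodels 0.14.6 and matplotlib 3.10.9 under Python 3.11.15.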

Additional observations from a re-analysis of the deposited data

How the results depend on the processing

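No paired analysis was possible because each genotype had 1 library. Of the 10 genes, the differences of Il13, Icos and Foxp3 stayed under 2-fold in all 3 comparisons under every alternative run, and those of Il4 and Ctla4 kept their side of 2-fold except with labels exchanged. With the AireKO and Sirt1cKO labels exchanged, AireKO minus WT counted 1 higher and 1 lower, Sirt1cKO minus WT 4 and 2, and AireKO minus Sirt1cKO 0 and 4. Then Il4, Ctla4, Ifng and Il2 differed by -3.44, -2.14, -2.08 and -1.09 in AireKO minus Sirt1cKO, Ifng and Il2 by -0.29 and -0.073 in AireKO minus WT, and by 1.79 and 1.02 in Sirt1cKO minus WT. Against the 99th Olfr percentile, 5 genes were above background in AireKO, 2 in Sirt1cKO and 4 in WT. At 3-fold, 0 were lower in AireKO minus WT, and 0 higher and 0 lower in Sirt1cKO minus WT, while at 1.5-fold 2 were lower in Sirt1cKO minus WT. With log2(value + 32), 1 was lower in AireKO minus WT and 0 in Sirt1cKO minus WT. Centring on the Olfr median and setting values to the background limit were added after the data were seen. Olfr centring left 2 higher in AireKO minus WT, 2 lower in Sirt1cKO minus WT and 1 lower in AireKO minus Sirt1cKO, which was Il10 at -1.01. Under it the all-gene median shifted by -0.79 for AireKO minus WT, by -0.32 for Sirt1cKO minus WT and by -0.47 for AireKO minus Sirt1cKO. Background limits left 0 lower in both comparisons with WT, and Gzmb at 0.051 in AireKO minus WT, which is the distance between the AireKO limit and the WT level. Where neither the exchange, a threshold nor a limit itself makes the change, its cause was not tested.

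The split over all genes, 638 higher and 1098 lower in AireKO minus WT, became 463 and 1479 after median centring, 248 and 814 with log2(value + 32), 306 and 922 with background limits and 68 and 6806 after Olfr centring. In AireKO minus Sirt1cKO, 200 higher and 347 lower became 150 and 435, 85 and 248, 111 and 278, and 41 and 1881 under the same alternatives in turn. In Sirt1cKO minus WT, 116 higher and 226 lower became 34 and 777 after Olfr centring. Centring on the median of all probe sets shifted the all-gene median by -0.11 for AireKO minus WT.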

Other observations

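Markers of the blood cells that make or answer these cytokines were also read. Of 10 mast cell, basophil and eosinophil genes, 4 were above background in AireKO, 5 in Sirt1cKO and 6 in WT. Over all genes the shares above it were 56.1%, 67.1% and 72.7% in the same order. The mast cell and basophil genes Cpa3, Mcpt8, Ms4a2 and Fcer1a were within background in all 3, and Mcpt4 was above it in WT alone. Hdc and Kit, of the same list, were above background in all 3. Hdc stood at 11.91 in AireKO, 11.37 in Sirt1cKO and 11.88 in WT, and Kit at 9.28, 9.89 and 9.79. The eosinophil granule genes Prg2 and Epx were lower in both knockout libraries, which share the WT library as their comparison, while the eosinophil surface gene Siglecf stood at 6.91 in AireKO, 7.23 in Sirt1cKO and 6.89 in WT. Prg2 stood at 7.42 in AireKO, 7.04 in Sirt1cKO and 9.01 in WT, 3.01-fold lower in AireKO and 3.90-fold lower in Sirt1cKO than in WT. Epx stood at 6.11 in AireKO, within background, 6.77 in Sirt1cKO and 7.94 in WT. Il5ra, the receptor chain for the eosinophil growth factor IL-5, stood at 6.78 in AireKO, within background, 7.57 in Sirt1cKO and 7.71 in WT. The natural killer genes Ncr1, Klrb1c, Klrd1 and Klre1 were within background in all 3 libraries. The 9 B cell, dendritic cell and macrophage genes were mixed, with 5 above WT in AireKO and a median difference of 0.05. The macrophage and neutrophil lysozyme gene Lyz2 stood at 10.76 in AireKO, 11.26 in Sirt1cKO and 12.06 in WT, and the macrophage gene Cd68 at 9.82, 9.31 and 9.14.

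Tuft cells, which in other epithelia answer IL-13 and release IL-25, had all 6 listed genes above background in each library. None was 2-fold from WT, while 3 were at least 2-fold lower in AireKO than in Sirt1cKO, beside 1.74% of all genes. The ion channel gene Trpm5 stood at 8.32 in AireKO, 9.73 in Sirt1cKO and 9.26 in WT. Il25, the tuft cell cytokine gene, stood at 7.23, 7.04 and 6.57 in the same order. Of the 12 mature medullary genes, 4 were at least 2-fold lower in AireKO than in WT, beside 5.51% of all genes. Among these 4, Cldn4 stood at 10.64 in AireKO, 11.59 in Sirt1cKO and 11.87 in WT.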
